A study of Mus musculus with 6 samples.

Results

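The 51 genes described here encode the machinery that copies DNA and the enzymes that supply its building blocks. They come from a list of gene names that was drawn up with earlier results of these data known, and were grouped by their step in replication into 8 sets. All 51 were found among the 24809 genes of the table. RNA sequencing was done on C2C12, an immortalized mouse myoblast line that proliferates and can be made to fuse into myotubes. The control group (n = 3, genotype labelled control, headed as a vector in the table) and the Msx1 overexpression group (n = 3) share that line. Msx1 is a homeobox transcription factor known for holding back differentiation. How Msx1 was introduced, whether the cells were a pool or a clone, and the density and stage at harvest were not stated in the labels, so a difference in stage or density between the groups and an effect of Msx1 cannot be told apart. The labels do not tie the 3 replicates of a group to separate cultures. Each p-value below therefore weighs a difference against the spread of these libraries alone, and that spread may be technical.

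A cell licenses its replication origins before S phase and fires them during S phase. Licensing means that the origin recognition complex (ORC), with Cdc6 and Cdt1, loads the ring-shaped helicase built from Mcm2 to Mcm7. At firing the kinase Cdc7 with its activator Dbf4, together with cyclin-dependent kinases, brings Cdc45 and the GINS complex to the helicase, and the polymerases follow. Most of these genes are transcribed periodically, many under E2F transcription factors, and a myoblast shuts them down when it leaves the cell cycle to differentiate. In bulk RNA a lower value may stand for fewer cells in S phase or for less RNA per cell, and these cannot be told apart.

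Values are FPKM, fragments per kilobase of transcript scaled to the mapped fragments of the library, summed per gene, and given as mean ± SD (n = 3 each) or library by library. Changes are differences of log2(FPKM + 1), Msx1 overexpression minus control, with the limma moderated standard error and p adjusted over 12371 genes tested. The scale understates the change of low genes. A gene is called higher or lower at an adjusted p under 0.05. Msx1 itself stood at 7.99, 7.13 and 7.54 FPKM in control and 1004, 943.7 and 912 FPKM in Msx1 libraries, so all 6 libraries carried the Msx1 level that their labels name. The libraries gave 11437 to 11516 genes at 1 FPKM or more. Total FPKM was 409664 to 441835 in control, highest in control replicate 1, and 390439 to 401802 in Msx1 libraries, without overlap.

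Most of the replication machinery was lower with Msx1. Of the 51 genes, 45 were called lower (88.2%), 1 higher and 5 in neither direction, where over all genes tested 32.4% were called lower and 22.0% higher. Every Msx1 library lay below every control library for 45 genes (88.2%), against 36.8% of all genes tested. The median change was -0.62 on the log2(FPKM + 1) scale, against -0.07 over all genes tested, and the median gene had 58.2% of its control FPKM. Only 8 of the 51 (15.7%) were called lower with a change of -1 or beyond, against 3.35% of all genes tested. Both group means of all 51 genes were at or above the minimum of 0.5 FPKM, so none entered the test through 1 group alone. The exception that rose was Orc6, and the 5 in neither direction were Orc2, Orc3, Cdt1, Pold3 and Rpa1. With no filter on low values, 24809 genes enter the test. There 37 of the 51 genes were called lower, against 13.7% of all genes. In that test Mcm2, Gins3, Gins4, Cdc7, Dbf4, Pola2, Pold2 and Rpa2 were no longer called.

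**Figure D1:**
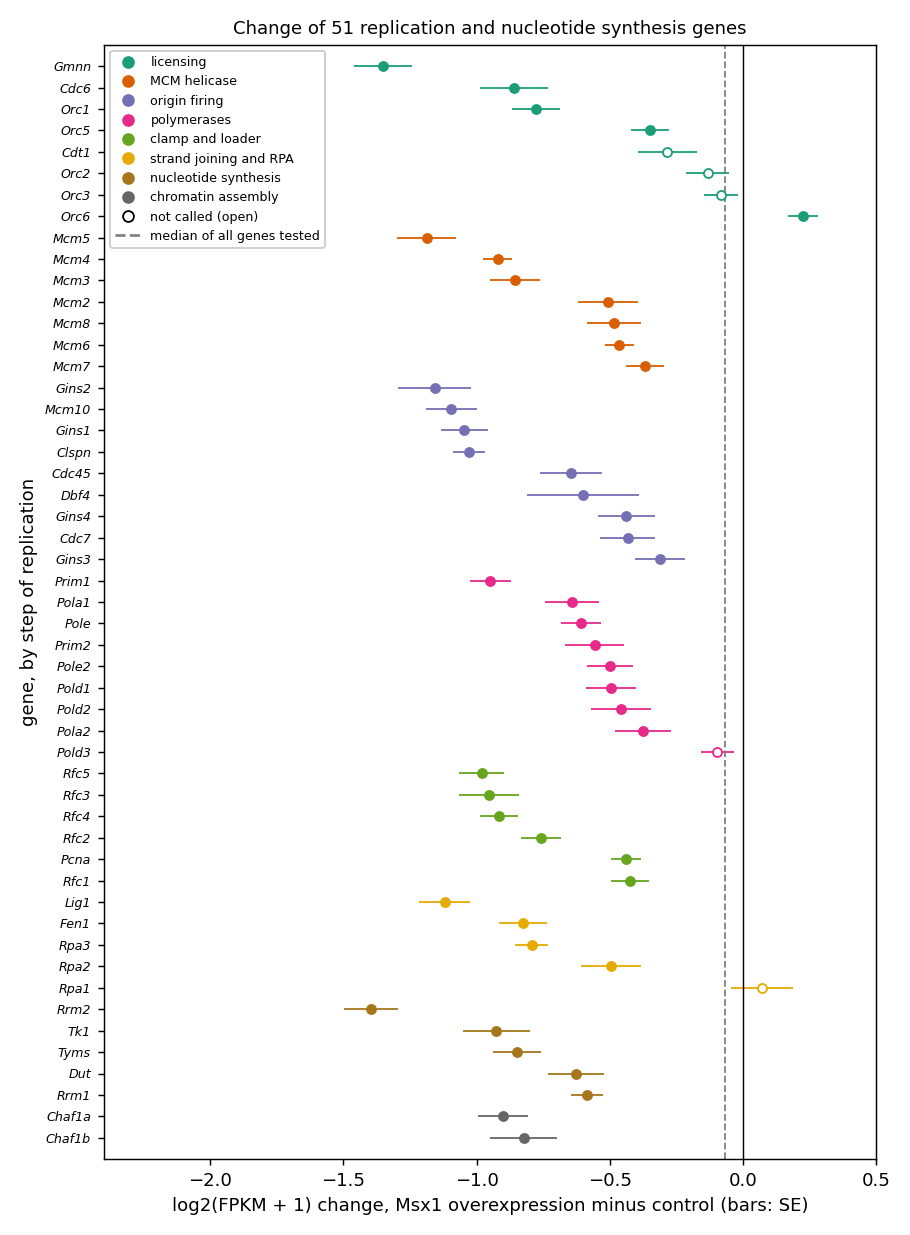
Change of each of the 51 genes on the log2(FPKM + 1) scale (x axis, Msx1 overexpression minus control, bars are the limma SE), ordered by step of replication (colours). Filled points were called, open points were not, and the dashed line is the median of all genes tested at -0.07, with 49 of the 51 genes to its left.

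Promoter sequence was examined because these genes moved together. The promoter table (RefSeq, GRCm38.p6, 250 bases before to 50 after an annotated start) held 50 windows for 43 of the 51 genes. Gmnn, Gins1, Gins2, Gins4, Mcm4, Rfc2, Prim2 and Pole had no window. All 8 were called lower, with changes from -1.35 (Gmnn) to -0.44 (Gins4), and they are missing from the comparisons below. An E2F site was searched on both strands as TTTCCCGC, TTTGGCGC, TTTCGCGC or TTTGCCGC, forms that can overlap each other. It was present in 17 of the 50 windows (34.0%), against 2.26% of all 32851 windows. By gene it was present in 17 of 43 listed genes (39.5%), against 4.89% of the 9732 tested genes with a window. The 17 genes with a match had a median change of -0.50 and the 26 without a match one of -0.61. Of the 17 genes 14 were called lower, and of the 26 genes 23. The motif CCAAT was in 27 of the 50 windows (54.0%), against 37.4% of all windows. The cell cycle homology motif TTTGAA was in 8 of the 50 windows (16.0%), close to the 17.9% of all windows. A match is a description of letters and not evidence of a factor bound there.

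The helicase genes Mcm5 and Mcm6 are shown because their E2F matches lie upstream of the start and overlap each other, and because Mcm5 fell the most of the helicase set while Mcm6 was among those that fell least. Sequences run 5′ to 3′ on the gene's strand with the matches in capitals. Mcm5 is on the plus strand (chr8:75109330-75109393) and Mcm6 on the minus strand (chr1:128359719-128359841).
Mcm5: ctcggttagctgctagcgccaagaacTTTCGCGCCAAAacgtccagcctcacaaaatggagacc
Mcm6: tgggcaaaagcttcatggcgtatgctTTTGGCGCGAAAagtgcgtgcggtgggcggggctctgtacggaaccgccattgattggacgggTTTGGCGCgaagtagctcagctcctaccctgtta

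Matches in further genes are shown with the bases on either side, for 6 genes that fell and 2 that were called in neither direction (Orc3 and Pold3). The windows are chr4:108579416-108579445 for Orc1, chr11:98908002-98908031 for Cdc6 and chr4:126556990-126557019 for Clspn, all on the plus strand. They are chrX:93632275-93632304 for Pola1, chr5:151651200-151651229 for Rfc3 and chr1:20820275-20820304 for Mcm3, all on the minus strand. Those of Orc3 and Pold3 are chr4:34614965-34614994 and chr7:100121467-100121496, both on the minus strand.
Orc1: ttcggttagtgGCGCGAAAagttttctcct
Cdc6: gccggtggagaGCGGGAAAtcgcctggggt
Clspn: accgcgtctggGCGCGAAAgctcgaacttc
Pola1: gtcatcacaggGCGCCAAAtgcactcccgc
Rfc3: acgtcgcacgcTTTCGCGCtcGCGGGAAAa
Mcm3: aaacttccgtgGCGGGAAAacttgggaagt
Orc3: ccatgcctcccTTTCCCGCacgccccgcct
Pold3: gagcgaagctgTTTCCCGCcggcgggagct

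Licensing was the step with the least uniform response. Of its 8 genes 4 fell, 1 rose and 3 were called in neither direction, with a median change of -0.32. The largest decrease was in Gmnn (chromosome 13, 24751845 to 24761937, GRCm38), which encodes geminin, the inhibitor that binds Cdt1 and blocks relicensing. Gmnn read 15.2, 11.6 and 12.2 FPKM in control replicates 1 to 3 and 4.86, 3.95 and 4.6 FPKM in Msx1 replicates 1 to 3 (change -1.35, SE 0.11, adjusted p = 2.53e-05). The Msx1 libraries held 34.4% of the control mean, with no overlap between groups. Cdt1, the loader that geminin restrains, read 13.2, 9.49 and 10.9 FPKM in control and 8.31, 9.06 and 9.46 FPKM in Msx1 libraries (change -0.28, SE 0.11, adjusted p = 0.0587). The groups did not overlap, but the upper Msx1 library was within 0.1 FPKM of the lowest control library, control replicate 2, and Cdt1 was not called. Without control replicate 2 it was called lower (change -0.39, adjusted p = 0.0123), and over 15 alternatives the adjusted p ran from 0.00352 to 0.218. Cdc6, the ATPase that loads the helicase with ORC, read 4.4, 3.65 and 2.72 FPKM in control and 1.49, 1.53 and 1.48 FPKM in Msx1 libraries (change -0.86, SE 0.13, adjusted p = 0.000783).

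Subunits of ORC went in different directions. Orc1, the subunit whose protein is degraded after licensing in many cells, fell from 2.24 ± 0.295 to 0.886 ± 0.104 FPKM (change -0.78, SE 0.09, adjusted p = 0.000209). It read 2.46, 2.35 and 1.91 FPKM in control and 0.828, 1.01 and 0.824 FPKM in Msx1 libraries, without overlap. Orc5 fell from 13.2 ± 0.766 to 10.1 ± 0.785 FPKM (change -0.35, adjusted p = 0.00453). Orc2 read 8.3, 9.99 and 9.33 FPKM in control and 7.65, 8.46 and 8.79 FPKM in Msx1 libraries (change -0.13, adjusted p = 0.204), and its groups overlapped. Without control replicate 1 Orc2 was called lower (change -0.20, adjusted p = 0.0497). Orc3 read 9.54, 10.7 and 10.5 FPKM in control and 9.29, 10.02 and 9.59 FPKM in Msx1 libraries (change -0.08, adjusted p = 0.306), also with overlap. Orc6 (chromosome 8, 85299632 to 85308279), the smallest and least conserved subunit, read 59.9, 55.6 and 57.9 FPKM in control replicates 1 to 3 and 64.1, 68.5 and 70.5 FPKM in Msx1 replicates 1 to 3 (change 0.22, SE 0.06, adjusted p = 0.0103). All Msx1 libraries of Orc6 lay above all control libraries, by 17.2% on average. With its most abundant transcript alone, Orc6 was no longer called (change 0.13, adjusted p = 0.0641, with 0.000586 to 0.0641 over 15 alternatives). That transcript went from 56.7 to 62.2 FPKM. Minor transcripts made up much of the rest of the rise, in Msx1 replicates 2 and 3 only. The non-coding NR_028268 was at 0.774 FPKM on average in control and at 0.851, 5.47 and 5.69 FPKM in Msx1 replicates 1 to 3. NM_001163791 was at 0.283 FPKM in control and at 0.215, 2.66 and 1.81 FPKM there. On the FPKM scale, which is per length, Orc6 was the highest and Orc1 the lowest of the 5 listed ORC genes in every library, and Orc6 stood 23.7 to 30.4 times above Orc1 in control and 68.1 to 85.6 times above it in Msx1 libraries.

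All 7 MCM genes fell, with a median change of -0.51 and a wide spread. Mcm5 (chromosome 8, 75109468 to 75128439) read 26.7, 19.3 and 20.7 FPKM in control replicates 1 to 3 and 9.6, 8.7 and 9.06 FPKM in Msx1 replicates 1 to 3 (change -1.19, SE 0.11, adjusted p = 6.27e-05), or 40.99% of control. Mcm4 (chromosome 16, 15623897 to 15637400) read 22.9, 21.5 and 21.8 FPKM in control and 10.9, 11.6 and 11.1 FPKM in Msx1 libraries (change -0.92, SE 0.05, adjusted p = 4.30e-06), the smallest adjusted p among the 51 genes. Mcm6, the most abundant helicase subunit, read 46.8, 44.3 and 45.5 FPKM in control and 32.5, 31.2 and 34.5 FPKM in Msx1 libraries (change -0.46, SE 0.05, adjusted p = 0.000214). It kept 71.9% of its control level. Mcm3 fell from 28.9 ± 3.63 to 15.5 ± 1.11 FPKM, Mcm2 from 25.1 ± 4.43 to 17.2 ± 0.725 FPKM and Mcm7 from 36.4 ± 3.45 to 27.9 ± 0.886 FPKM (log2 changes -0.86, -0.51 and -0.37).

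The 6 subunits of the helicase ring are built into it in equal number, but their RNA levels per length spread further apart with Msx1. The highest of the 6 was 2.05, 2.29 and 2.20 times the lowest in the control libraries and 3.38, 3.58 and 3.81 times the lowest in the Msx1 libraries. Mcm6 was the highest in all 6 libraries, and the lowest was Mcm5 in all libraries but control replicate 1, where it was Mcm4. This ratio, like those given for ORC, GINS, the clamp loader and RPA, was computed after the values had been seen. Mcm8, a relative that works with Mcm9 in recombination repair and not in the ring, read 1.54, 1.97 and 2.02 FPKM in control and 1.09, 0.837 and 1.18 FPKM in Msx1 libraries (change -0.48, adjusted p = 0.00458). The ratio of Mcm8 to Mcm4 was 0.0674, 0.0919 and 0.0925 in control and 0.1, 0.072 and 0.107 in Msx1 libraries, with overlapping groups.

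**Figure D2:**
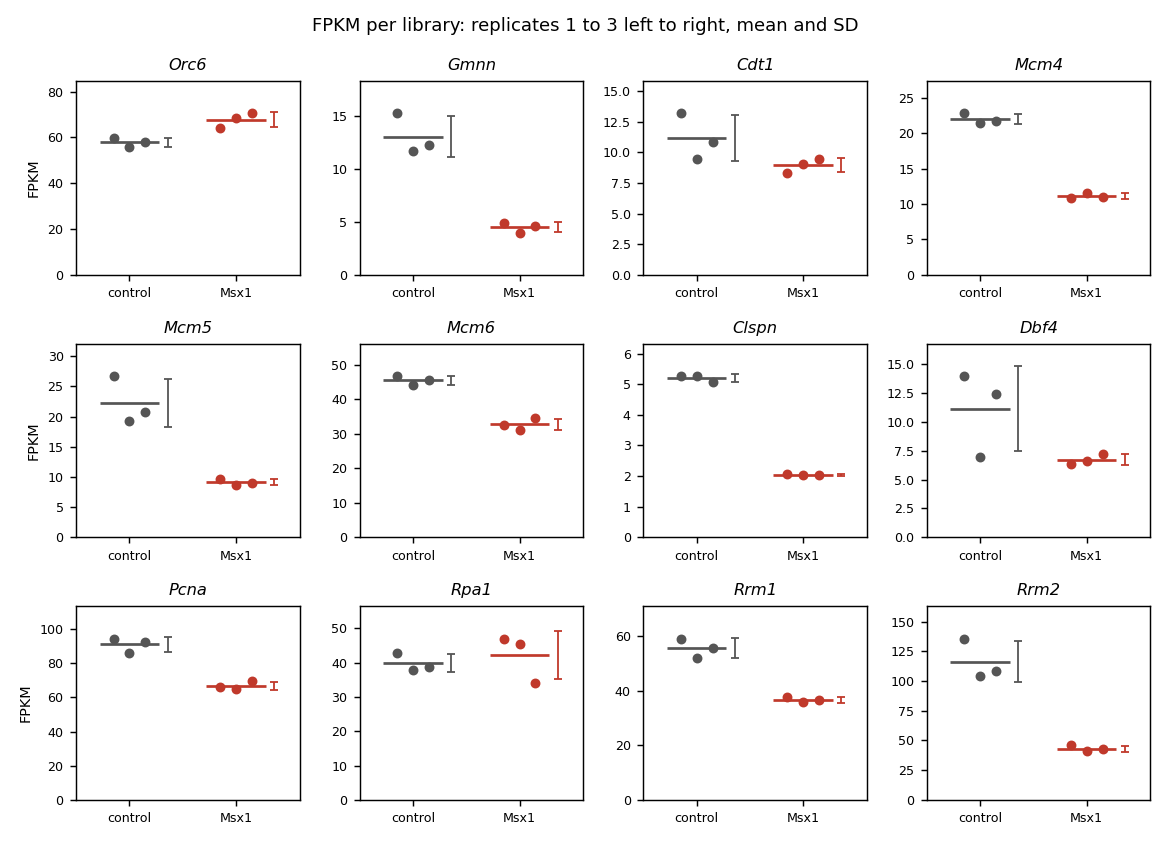
FPKM (y axis, from 0) of 12 of the genes in each of the 6 libraries, control in grey and Msx1 overexpression in red, with the group mean (line) and SD (bar). Orc6 is higher and Gmnn, Mcm4, Mcm5, Mcm6, Clspn, Pcna, Rrm1 and Rrm2 are lower in every Msx1 library, Cdt1 is lower by a narrow gap, and Dbf4 and Rpa1 overlap between groups.

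Origin firing genes were all called lower, 9 of 9, with a median change of -0.65, and 4 of them fell by more than 1. Gins2 (chromosome 8, 120581266 to 120589075), a GINS subunit of the active helicase, read 20.1, 13.7 and 13.5 FPKM in control replicates 1 to 3 and 6.31, 6.36 and 6.55 FPKM in Msx1 replicates 1 to 3 (change -1.16, SE 0.14, adjusted p = 0.000217). Control replicate 1 stood above the other control libraries, and the Msx1 libraries lay close together. Mcm10, which helps split the loaded helicases at firing, fell from 4.59 ± 0.595 to 1.61 ± 0.165 FPKM (change -1.09, adjusted p = 4.15e-05). Gins1 fell from 6.2 ± 0.549 to 2.49 ± 0.28 FPKM (change -1.05, adjusted p = 3.20e-05). Clspn, encoding claspin, which links the fork to the checkpoint kinase Chk1, read 5.26, 5.27 and 5.06 FPKM in control and 2.06, 2.02 and 2.02 FPKM in Msx1 libraries (change -1.03, SE 0.06, adjusted p = 4.39e-06), with the tightest replicates of the step.

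The remaining GINS genes fell less. Gins4, the most abundant gene of the step, read 23.9, 18.1 and 18.2 FPKM in control and 15.1, 14.7 and 13.6 FPKM in Msx1 libraries (change -0.44, adjusted p = 0.00951). Gins3 fell from 8.39 ± 1.1 to 6.54 ± 0.448 FPKM (change -0.31, adjusted p = 0.0233). That call did not hold under each of the 3 scalings (adjusted p = 0.0578 to 0.0662) and without control replicate 3 (0.0543) or Msx1 replicate 1 (0.0853). Over 15 alternatives the adjusted p of Gins3 ran from 0.00143 to 0.103. Within a library the highest GINS gene, Gins4, was 2.95 to 3.53 times the lowest, Gins1, in control and 5.34 to 6.72 times in Msx1 libraries. Cdc45, the third partner of the active helicase, fell from 10.1 ± 0.713 to 6.16 ± 1.11 FPKM (change -0.65, adjusted p = 0.00208).

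The firing kinase Cdc7 read 2.77, 3.69 and 3.03 FPKM in control and 1.8, 2.23 and 2.2 FPKM in Msx1 libraries (change -0.43, adjusted p = 0.00804). Its activator Dbf4 read 13.97, 6.99 and 12.4 FPKM in control and 6.36, 6.59 and 7.23 FPKM in Msx1 libraries (change -0.60, SE 0.21, adjusted p = 0.0412). Control replicate 2 of Dbf4 fell inside the range of the Msx1 libraries, so the groups overlapped. The Dbf4 call was lost in 9 of 15 alternatives, with adjusted p from 0.000128 to 0.209. Those 9 include the removal of control replicate 1, control replicate 3 or any Msx1 library (adjusted p = 0.0719 to 0.129). Without control replicate 2 the change was -0.88 and the call was kept. The ratio of Dbf4 to Cdc7 was 5.05, 1.9 and 4.1 in control and 3.54, 2.96 and 3.29 in Msx1 libraries, with control replicate 2 the lowest of the 6 and control replicate 1 the highest.

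Polymerase genes fell in 8 of 9 cases, with a median change of -0.50 and none beyond -1. Prim1 (chromosome 10, 128015215 to 128030030), the catalytic subunit of primase, which lays down the RNA primers, read 16.3, 14.9 and 15.2 FPKM in control replicates 1 to 3 and 6.93, 7.33 and 8.38 FPKM in Msx1 replicates 1 to 3 (change -0.95, SE 0.08, adjusted p = 2.46e-05). Its partner Prim2 fell from 11.5 ± 1.93 to 7.43 ± 0.53 FPKM and the polymerase alpha subunits Pola1 and Pola2 from 5.01 ± 0.362 to 2.87 ± 0.467 FPKM and from 10.7 ± 1.68 to 7.98 ± 0.5 FPKM (log2 changes -0.56, -0.64 and -0.38). The Pola2 call was lost with its most abundant transcript alone (adjusted p = 0.199) and without Msx1 replicate 2 (0.0591), with a range of 0.000528 to 0.199 over 15 alternatives.

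Among the replicative polymerases, Pole, the catalytic subunit of the leading-strand enzyme epsilon, read 4.62, 4.41 and 4.71 FPKM in control and 2.98, 2.53 and 2.48 FPKM in Msx1 libraries (change -0.61, adjusted p = 0.000277). Pold1, the catalytic subunit of the lagging-strand enzyme delta, read 7.39, 6.04 and 6.22 FPKM in control and 4.9, 4.03 and 4.14 FPKM in Msx1 libraries (change -0.49, adjusted p = 0.0029). The ratio of Pole to Pold1 was 0.625, 0.73 and 0.757 in control and 0.608, 0.627 and 0.601 in Msx1 libraries, with overlap. The polymerase delta subunit Pold2, the most abundant gene of the step, read 24.8, 17.3 and 20.5 FPKM in control and 14.7, 14.4 and 15.1 FPKM in Msx1 libraries (change -0.46, adjusted p = 0.00952). Pole2, the partner of Pole, fell from 7.04 ± 0.291 to 4.71 ± 0.605 FPKM. Pold3, another subunit of polymerase delta, read 7.95, 8.68 and 8.84 FPKM in control and 7.83, 7.61 and 8.18 FPKM in Msx1 libraries (change -0.10, adjusted p = 0.231), with overlapping groups.

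**Figure D3:**
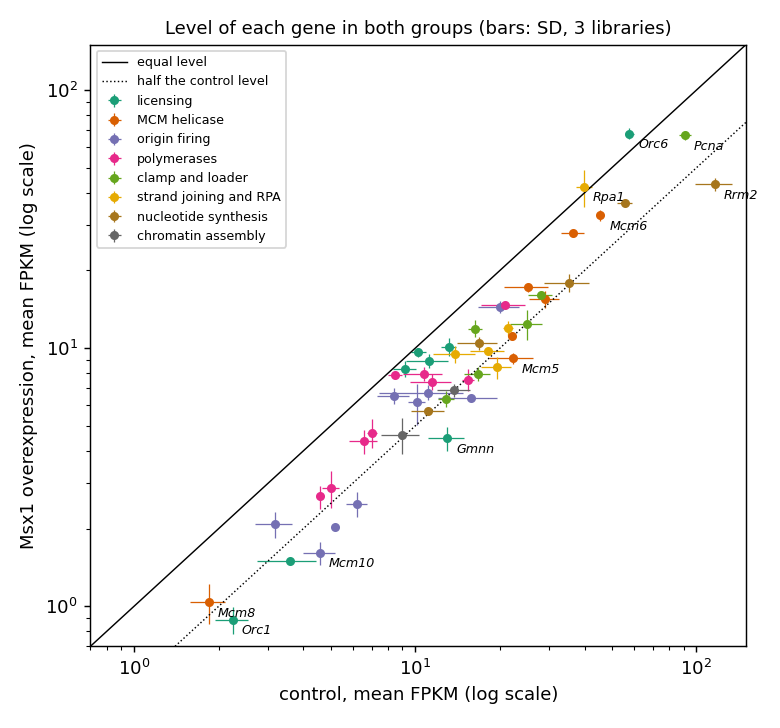
Mean FPKM of each of the 51 genes in control (x axis) and Msx1 overexpression (y axis), both on log scales, with SD over 3 libraries and colours by step. Points below the solid line were lower in Msx1 libraries, and 15 of the 51 genes lay on or below the dotted line at 50% of the control level.

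The sliding clamp and its loader fell in 6 of 6 genes, with a median change of -0.84. Pcna (chromosome 2, 132249286 to 132253180), the clamp that tethers the polymerases, read 94.5, 86.1 and 92.3 FPKM in control replicates 1 to 3 and 66.2, 64.7 and 69.4 FPKM in Msx1 replicates 1 to 3 (change -0.44, SE 0.06, adjusted p = 0.000329). It kept 73.4% of control and was the second most abundant of the 51 genes in control and close to Orc6 in Msx1 libraries. Pseudogenes named after Pcna (2) and Tyms (1) are annotated, and reads they share with the parent gene could not be separated here. The small loader subunits had larger decreases than the clamp, a difference that was not tested. Rfc5, one of them, read 18.4, 14.9 and 16.8 FPKM in control and 8.52, 7.57 and 7.79 FPKM in Msx1 libraries (change -0.98, SE 0.08, adjusted p = 3.52e-05). Rfc4 read 13.9, 12.2 and 12.6 FPKM in control and 6.28, 6.85 and 5.996 FPKM in Msx1 libraries (change -0.92, adjusted p = 2.22e-05), while Rfc3 and Rfc2 fell from 24.9 ± 3.28 to 12.4 ± 1.63 FPKM and from 27.97 ± 2.78 to 16.1 ± 0.617 FPKM.

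Rfc1, the large subunit that opens the clamp, fell the least of the loader. It read 15.2, 16.6 and 17.2 FPKM in control and 11.3, 12.9 and 11.5 FPKM in Msx1 libraries (change -0.43, adjusted p = 0.0015). The ratio of Rfc1 to Rfc4 was 1.1, 1.36 and 1.36 in control and 1.8, 1.89 and 1.92 in Msx1 libraries, so it was higher in every Msx1 library. With its most abundant transcript alone, Rfc1 was no longer called (change -0.37, adjusted p = 0.0872). On the FPKM scale Rfc2 was the highest and Rfc4 the lowest of the 5 loader genes in every library. They were 2.11 to 2.24 times apart in control and 2.34 to 2.79 times apart in Msx1 libraries.

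Of the genes for lagging-strand processing and single-strand binding, 4 of 5 fell. Lig1 (chromosome 7, 13277175 to 13311426), the ligase that seals Okazaki fragments, read 22.2, 18.2 and 18.1 FPKM in control replicates 1 to 3 and 9.25, 8.42 and 7.62 FPKM in Msx1 replicates 1 to 3 (change -1.12, SE 0.10, adjusted p = 3.73e-05). Fen1, the nuclease that trims their flaps, fell from 18.1 ± 2.5 to 9.74 ± 0.316 FPKM (change -0.83, adjusted p = 0.000151). The RPA trimer, which coats single-stranded DNA, responded unevenly. Rpa3, its small subunit, read 20.8, 22.4 and 20.99 FPKM in control and 12.8, 11.6 and 11.3 FPKM in Msx1 libraries (change -0.79, adjusted p = 2.35e-05). Rpa2, the middle subunit, fell from 13.9 ± 2.36 to 9.48 ± 0.728 FPKM (change -0.50, adjusted p = 0.00667). Rpa1, the large subunit, read 42.8, 37.96 and 38.7 FPKM in control and 47.02, 45.4 and 34.2 FPKM in Msx1 libraries (change 0.07, adjusted p = 0.639), and Msx1 replicate 3 lay below all control libraries while Msx1 replicates 1 and 2 lay above them. Without Msx1 replicate 3, Rpa1 was called higher (change 0.21, adjusted p = 0.0466), and without Msx1 replicate 1 its change was -0.01, with adjusted p of 0.0466 to 0.989 over 15 alternatives. The ratio of Rpa3 to Rpa1 was 0.487, 0.59 and 0.542 in control and 0.273, 0.256 and 0.332 in Msx1 libraries. On the FPKM scale Rpa1 was the highest and Rpa2 the lowest of the trimer in every library, 2.59 to 3.17 times apart in control and 3.36 to 5.20 times apart in Msx1 libraries.

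All 5 nucleotide synthesis genes fell, with a median change of -0.85. Rrm2 (chromosome 12, 24708254 to 24714146), the S-phase small subunit of ribonucleotide reductase, which makes deoxynucleotides, had the largest decrease of the 51 genes on the log2(FPKM + 1) scale and was the most abundant of them in control. As a share of the control FPKM, Gmnn (34.4%) and Mcm10 (35.1%) were lower still, and with a pseudocount of 0.1 FPKM the changes were -1.42 for Rrm2, -1.51 for Gmnn and -1.45 for Mcm10. Rrm2 read 136, 104 and 109 FPKM in control replicates 1 to 3 and 45.9, 40.8 and 42.98 FPKM in Msx1 replicates 1 to 3 (change -1.40, SE 0.10, adjusted p = 1.42e-05), or 37.2% of control. Rrm1, the large subunit, whose protein is known to persist through the cell cycle, read 59.1, 51.96 and 55.7 FPKM in control and 37.8, 35.7 and 36.4 FPKM in Msx1 libraries (change -0.59, adjusted p = 9.59e-05), or 65.9% of control. The ratio of Rrm2 to Rrm1 was 2.3, 1.999 and 1.95 in control and 1.21, 1.14 and 1.18 in Msx1 libraries.

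The thymidylate genes fell by similar amounts. Tyms, thymidylate synthase, read 12.7, 9.8 and 10.9 FPKM in control and 5.72, 5.56 and 5.84 FPKM in Msx1 libraries (change -0.85, adjusted p = 0.000117). Tk1, the thymidine salvage kinase of S phase, read 41.2, 28.5 and 35.9 FPKM in control and 19.4, 16.6 and 17.6 FPKM in Msx1 libraries (change -0.93, adjusted p = 0.000458). The ratio of Tk1 to Tyms was 3.24, 2.91 and 3.29 in control and 3.39, 2.98 and 3.02 in Msx1 libraries, with overlap. Dut, the dUTPase that keeps uracil out of DNA, fell from 16.8 ± 2.68 to 10.5 ± 0.627 FPKM (change -0.62, adjusted p = 0.00151).

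Both listed subunits of chromatin assembly factor 1, which deposits histones behind the fork, fell. Chaf1a read 15.7, 12.03 and 13.5 FPKM in control and 7.24, 6.49 and 6.88 FPKM in Msx1 libraries (change -0.90, adjusted p = 0.000113). Chaf1b read 10.5, 7.84 and 8.51 FPKM in control and 5.29, 3.84 and 4.74 FPKM in Msx1 libraries (change -0.82, adjusted p = 0.000925). The ratio of Chaf1b to Chaf1a was 0.67, 0.652 and 0.628 in control and 0.731, 0.592 and 0.689 in Msx1 libraries, with overlap.

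A ratio of genes within a library does not depend on how that library was scaled. Of the 10 ratios computed, 5 had no overlap between groups. Groups apart were common in these data. Among the 12371 single genes tested, every Msx1 library lay below every control library for 4550 and above for 3157. Gmnn to Cdt1 was 1.15, 1.22 and 1.12 in control and 0.585, 0.436 and 0.486 in Msx1 libraries (log2 difference -1.22). Orc1 to Orc2 was 0.297, 0.235 and 0.204 in control and 0.108, 0.119 and 0.0938 in Msx1 libraries (log2 difference -1.19). Rpa3 to Rpa1 had a log2 difference of -0.92 and Rrm2 to Rrm1 one of -0.82. Rfc1 to Rfc4 went the other way, with a log2 difference of 0.56. The exact two-sided permutation test over libraries gave p = 0.1 for each of these 5, the smallest that 3 against 3 libraries allow, and 0.2 after adjustment over the 10 ratios. The other 5 gave exact p from 0.2 to 1 and log2 differences from -0.20 to 0.14, and with libraries this few such p-values do not show that a ratio was unaltered. Some of these 5 moved with the setting. Dbf4 to Cdc7 had a log2 difference of 0.60 with the most abundant transcripts alone and -0.48 without control replicate 2, each with an exact p of 0.1. Pole to Pold1 without control replicate 1 (-0.28) and Chaf1b to Chaf1a without Msx1 replicate 2 (0.13) also reached an exact p of 0.1.

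**Figure D4:**
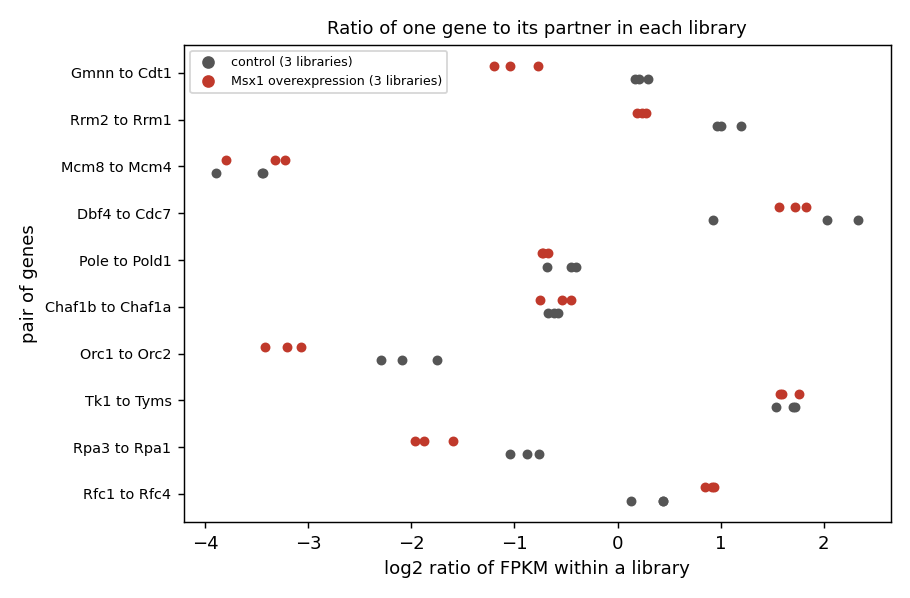
Log2 ratio of FPKM of 2 genes within each library (x axis) for 10 pairs (y axis), control in grey and Msx1 overexpression in red, 3 libraries each. Groups are apart for Gmnn to Cdt1, Rrm2 to Rrm1, Orc1 to Orc2, Rpa3 to Rpa1 and Rfc1 to Rfc4, and overlap for the other 5.

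The libraries differed within groups in a way that many members shared. Control replicate 1 was the highest control library for 38 of the 51 genes and control replicate 2 the lowest for 35. The median SD of a gene was 12.5% of its mean in control and 6.71% in Msx1 libraries. The median deviation of the 51 genes from their own mean on the log2(FPKM + 1) scale was 0.50, 0.25 and 0.31 in control and -0.29, -0.37 and -0.30 in Msx1 libraries. Without control replicate 1, 45 genes were called lower and the median change was -0.60. Control replicate 1 also had the highest total FPKM of the 6 libraries.

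Transcripts of 1 gene were divided unevenly between libraries for some members, 21 of which had more than 1 transcript in the table. For Mcm10, transcript NM_001305259 took nearly all FPKM in replicate 1 of both groups (5.13 in control and 1.71 in Msx1) and at most 0.0106 FPKM in the other 4 libraries. There transcript NM_027290 took it, at 3.94 and 4.69 FPKM in control and 1.42 and 1.69 FPKM in Msx1 replicates 2 and 3. The sum for Mcm10 did not overlap between groups, while its most abundant transcript alone was not called (change -0.70, adjusted p = 0.464, the highest of 15 alternatives that start at 9.31e-07). For Cdc45, NM_009862 was at 6.06 FPKM in control replicate 3 and at 0 in the other 5 libraries, and the most abundant transcript alone was not called (change -0.34, adjusted p = 0.413, the highest of 15 alternatives that start at 0.000119). By their annotated spans (GRCm38) 21 of the 51 genes overlap another gene, for example Mcm7, which overlaps Ap4m1 and hosts microRNA genes, and reads in an overlap cannot be told apart without strand.

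The rest of the pathway was covered by 30 other genes of the fork and its assembly, 29 of them tested. Of these 20 fell (69.0%), 0 rose and 9 were called in neither direction, with a median change of -0.41. Over all genes tested, 32.4% were called lower and 22.0% higher. Chtf18, of the alternative clamp loader that acts in cohesion, fell from 5.17 ± 0.578 to 1.87 ± 0.0597 FPKM (change -1.10, adjusted p = 1.64e-05). Timeless, of the fork protection complex, fell from 5.29 ± 0.549 to 2.24 ± 0.109 FPKM (change -0.95, adjusted p = 3.26e-05). Orc4, an ORC subunit in this list, was at 9.09 and 8.12 FPKM (adjusted p = 0.192), and Mcm9, the partner of Mcm8, at 2.02 and 2.12 FPKM (adjusted p = 0.637).

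Other nucleotide metabolism genes, 44 in all, were less uniform: 21 fell, 5 rose and 18 were called in neither direction, with a median change of -0.19. The shares were 47.7% lower and 11.4% higher, against 32.4% and 22.0% of all genes tested. Nme2 and Nme1, nucleoside diphosphate kinases that are close relatives lying next to each other and may share reads, had the largest decreases, from 599 ± 93.1 to 243 ± 11.1 FPKM and from 104 ± 21.6 to 48.1 ± 1.81 FPKM. Samhd1, which breaks down deoxynucleotides, had the largest rise of the list, from 30.6 ± 1.61 to 53.1 ± 1.53 FPKM (change 0.77, adjusted p = 1.33e-05). Rrm2b, the p53-induced alternative to Rrm2, was at 5.04 and 6.04 FPKM and was not called (adjusted p = 0.119). Genes of de novo purine and pyrimidine synthesis were divided. Ppat, Gmps, Adss, Cad, Prps1 and Ctps fell (changes -0.52, -0.28, -0.31, -0.26, -0.60 and -0.31), while Adssl1 rose (0.16, adjusted p = 0.04485). Gart, Pfas, Paics, Adsl, Atic, Impdh1, Impdh2, Prps2, Dhodh, Umps and Ctps2 were not called (adjusted p = 0.0532 to 0.8). Rrm2b and these genes were picked for their function after values had been seen.

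Of 11 genes of histone supply 9 fell (81.8%, against 32.4% of all genes tested) and 0 rose, with a median change of -0.30. Asf1b, a histone chaperone of cycling cells, fell from 47.2 ± 7.22 to 22.4 ± 1.8 FPKM (change -1.04, adjusted p = 0.000113). Its relative Asf1a was at 6.66 and 6.88 FPKM and was not called (adjusted p = 0.681). H2az1, a histone variant gene, fell from 253 ± 37.4 to 129 ± 10.5 FPKM. Of 17 genes of S-phase control 12 fell (70.6%, against the same 32.4%) and 0 rose, with a median change of -0.62. Ccna2, encoding cyclin A2, fell from 36.2 ± 1.34 to 12.8 ± 1.13 FPKM (change -1.43, adjusted p = 1.57e-06) and Ccne1, encoding cyclin E1, from 11.1 ± 2.15 to 3.63 ± 0.0775 FPKM (change -1.37, adjusted p = 3.36e-05). Dtl, the adaptor for the ligase that degrades Cdt1, fell from 5.6 ± 0.211 to 2.43 ± 0.244 FPKM. The transcription factor genes E2f1 and E2f2 were at 13.8 and 12.4 and at 1.74 and 1.72 FPKM, and neither was called (adjusted p = 0.218 and 0.93). Their relatives E2f3, E2f7 and E2f8 fell, with changes of -0.30, -0.64 and -0.32. Asf1a, Dtl, the 5 E2f genes, Orc4 and Mcm9 were likewise picked for their function after values had been seen.

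Mitosis genes were lower by more than replication genes in these libraries, a description without a test of the difference. A list of 30 of them had a median change of -1.33 with a range of -1.60 to -0.97. All 30 were called lower, against 32.4% of all genes tested. The 51 replication genes had a median of -0.62 with a range of -1.40 to 0.22, and 88.2% of them were called lower. Ccnb2, encoding cyclin B2, fell from 38.5 ± 2.84 to 12 ± 0.761 FPKM and Ube2c, the ubiquitin-conjugating enzyme of the anaphase-promoting complex, from 57.6 ± 5.62 to 18.2 ± 1.07 FPKM. The median mitosis gene kept 34.7% of its control FPKM, against 58.2% for the replication genes. On that FPKM scale Gmnn, at 34.4%, was the only one of the 51 genes below the median mitosis gene.

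**Figure D5:**
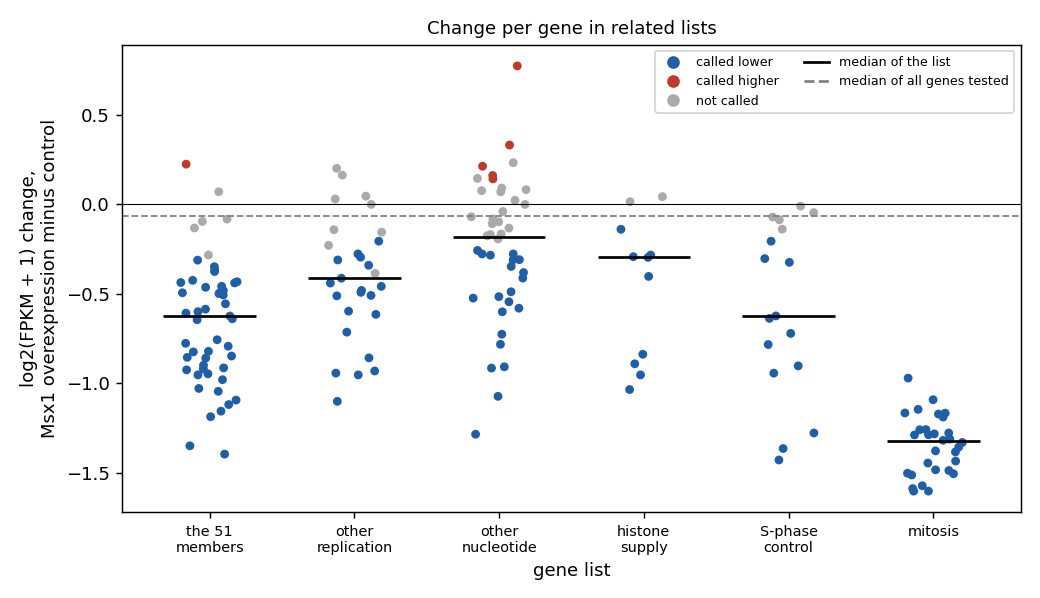
Change of each tested gene on the log2(FPKM + 1) scale (y axis, Msx1 overexpression minus control) in 6 gene lists (x axis), coloured by call, with the list's median as a black line and the median of all genes tested dashed. The medians are -0.62 for the 51 genes, -0.41 and -0.19 for the other replication and nucleotide genes, -0.30 for histone supply, -0.62 for S-phase control and -1.33 for mitosis.

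Markers of the cell type and its stage moved with these changes. All 7 myoblast markers had a mean of at least 1 FPKM, and their summed level was 257 to 263 FPKM in control and 210 to 220 FPKM in Msx1 libraries. Its members moved differently: Des, which made up most of the sum, Myf5, Chrna1 and Vcam1 fell (changes -0.27, -1.92, -0.16 and -0.54), Pax7 rose (0.28), and Myod1 and Cdh15 were not called (adjusted p = 0.108 and 0.121). The summed level of 6 myotube markers was 6.22 to 8.08 FPKM in control and 30.2 to 32.4 FPKM in Msx1 libraries. Acta1, skeletal actin, rose from 2.87 ± 0.516 to 18.2 ± 1.62 FPKM, Myog, the transcription factor myogenin, from 2.76 ± 0.469 to 5.75 ± 0.153 FPKM and Mymk, the fusion protein myomaker, from 0.888 ± 0.307 to 6.85 ± 0.483 FPKM (adjusted p = 1.54e-06, 0.000171 and 3.67e-06). The myotube markers Myh3, Myh1 and Ckm each stayed under 0.5 FPKM on average and were not tested. Of 5 fibroblast markers the sum was 39.0 to 43.9 FPKM in control and, in Msx1 libraries, 80.4 to 82.2 FPKM. Dpt rose from 0.436 to 44.3 FPKM and Col1a1 from 22.8 to 27.2 FPKM, while Pdgfra fell from 18.7 to 8.84 FPKM. Lum, at 0.0606 and 0.931 FPKM, and Thy1, at 0.0266 and 0.0399 FPKM, were not tested. The 5 adipocyte markers summed to 21.0 to 24.1 FPKM in control and 16.9 to 17.1 FPKM in Msx1 libraries. Most of that was Cebpa, at 17.0 and 14.8 FPKM and not called. Pparg fell from 4.4 to 1.315 FPKM and Fabp4 from 1.575 to 0.315 FPKM. Adipoq, at 0 in control and 0.56 FPKM in Msx1 libraries, and Plin1, at 0 in every library, were not tested. Leukocyte markers Ptprc and Adgre1 were listed at 0 in every library. The 4 leukocyte markers summed to 2.839 to 3.635 FPKM in control and 1.13 to 1.425 FPKM in Msx1 libraries. Most of that was Cd68, which fell from 3.0 to 1.05 FPKM (adjusted p = 6.075e-05). The 3 endothelial markers summed to 0.171 to 0.2075 FPKM in control and 0.493 to 0.878 FPKM in Msx1 libraries. The part of cell stage or of a mixed culture in the lower replication genes was not tested.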

How the data were processed

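RNA of C2C12 cells, 3 control and 3 Msx1 overexpression libraries, was extracted with Trizol, per the labels' protocols. The authors deposited 1 table of FPKM per RefSeq transcript, and the submitters' processing notes name Trimmomatic, HISAT2, StringTie and the build GRCm38 (mm10) without versions. Strand setting and FPKM scaling were not stated there. Control columns are headed as a vector and were matched to the control labels by number.

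From the 38468 transcripts, 38193 received a gene symbol from the RefSeq table and 156 from GENCODE. The other 119 had none and were kept under their transcript names. FPKM was summed per symbol or name into 24809 rows, called genes here. Whole reads could not be recovered, as only 39.6 to 44.3% of the low values came within 0.1 of whole numbers of reads. Some values come that near by chance. The depths that fitted best within a preset search range were 18.9 M to 24.2 M fragments. They are rough guides and not measured depths. FPKM is per library, so a few abundant genes can shift the rest.

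A gene was tested if its FPKM averaged 0.5 or more over the 6 libraries, which left 12371. On log2(FPKM + 1), limma 3.58.1 (R 4.3.3, eBayes with trend, Benjamini-Hochberg adjustment over all genes tested) compared the 2 groups, after a test on simulated data. Ratios within libraries were tested with an exact two-sided permutation test. Promoter motifs were counted as exact letter matches. Per step, genes were given library by library if they were not called lower, fell the most, were the most abundant or stood in a ratio, and the 2 largest called changes were named for each other list. Members and lists were chosen with earlier results of these data known. Alternatives covered the pseudocount, the filter, 3 scalings, weights, the transcript used, a replicate block and each library left out.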

Additional observations from a re-analysis of the deposited data

How the results depend on the processing

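The count of genes called lower stayed within 1.5 times the reported 45 in all 15 alternatives, from 37 (no filter) to 49 (sample weights). It was 43 under each of the 3 scalings, 41 with the most abundant transcript of each gene alone, and 43 to 46 when 1 library was left out. The share of all genes tested that were called lower moved more widely. It was 32.4% in the main fit, 13.7% with no filter and 42.5% with sample weights. Under median-of-ratios scaling, quantile normalization and equal totals without Msx1 it was 25.9%, 29.4% and 22.75%. The median change of the 51 genes moved to -0.76 with a pseudocount of 0.1 FPKM and to -0.52 after scaling to equal totals without Msx1. It ran from -0.70 to -0.58 when 1 library was left out. The number called higher was 0 with the most abundant transcript alone, and 1 to 2 when 1 library was left out, 2 without Msx1 replicate 3, where Rpa1 joined at 0.21. Signs of uncalled genes turned for Orc3 (0.0195) and Pold3 (0.0045) under equal totals without Msx1, and for Rpa1 (-0.0131) without Msx1 replicate 1; the cause was not tested. Of the 51 genes, 34 kept direction and call in every alternative that could test them, and 17 did not in at least 1. Over all genes tested, the share of calls that were higher was 40.4%, and 50.7%, 45.8% and 55.4% under median-of-ratios scaling, quantile normalization and equal totals without Msx1. The replicate block called 45 genes lower and 1 higher with a median change of -0.62 and changed no call among the 51. Same-numbered libraries had correlated deviations of 0.055, 0.226 and 0.037. Control replicates 2 and 3 correlated best with the same-numbered Msx1 library, and control replicate 1 with Msx1 replicate 3 (0.133). As the values were low, the numbers were not taken as pairs. Whether same-numbered libraries were handled together was not tested. Without read counts, the precision of low genes such as Orc1 and Mcm8 cannot be stated from depth.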
